A study of Triticum aestivum with 24 samples.

Results

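The Cu-Zn superoxide dismutases described here are the 4 loci that carry this annotation in a table of miRNA targets found by sequencing the degradome of wheat leaves, out of 62 loci in the table. They were chosen by annotation alone, and they fell into a pair under miR398 on the group 2 chromosomes, TraesCS2A01G399000 and TraesCS2B01G417000, and a pair under miR528 on the group 7 chromosomes, TraesCS7A01G292100 and TraesCS7B01G197300. The table lists 239 combinations of a miRNA and a cut on 92 distinct sites, of which 4 belong to these loci. The name is that of the table, and whether it holds for the miR398 pair was not determined.

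The assay was PARE, parallel analysis of RNA ends. It sequences short tags from the 5′ end of poly(A) RNA that has lost its cap. Tags that start together at 1 position are taken to mark a cut. Such ends can be of cleaved or of otherwise uncapped mRNA, so a cut below means a listed cleavage position. Leaves came from Triticum aestivum cv Chinese Spring, a hexaploid bread wheat, with seed obtained by selfing 1 plant. The 24 libraries formed 6 groups of 4 biological replicates, namely plants held at 37 °C for 5 days from the boot stage and control plants kept at 18 °C in the light and 16 °C in the dark, each sampled on days 0, 1 and 4 after the treatment ended, with RNA pooled over 18 plants per library. Tag values in the table have no column for a library, treatment or day, and which libraries they cover is not stated. Leaves from heated and control plants could therefore not be compared, and no value below has replicates.

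Cu-Zn superoxide dismutases turn superoxide, a reactive oxygen species, into hydrogen peroxide and oxygen, with copper and zinc bound in the active site, and plants have them in the cytosol, the plastids and the peroxisomes. In Arabidopsis, miR398 is known to guide the cutting of transcripts of Cu-Zn superoxide dismutases and of the copper chaperone that loads them, and it accumulates when copper is short. miR528 is a monocot miRNA known for targets among copper proteins, such as ascorbate oxidase in rice. Plant miRNAs pair along most of their length, and Argonaute typically cuts the target between the bases that lie opposite bases 10 and 11 of the miRNA, so that the tag starts opposite base 10.

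The miRNAs and the sites they were listed with are shown first because the pairing is what separates the pairs. The mature miRNAs are written 5′ to 3′ with their seed, bases 2 to 8, in capitals. In the sites, also written 5′ to 3′, capitals mark the bases that form a Watson-Crick pair with the miRNA. Both copies of a pair held the same 21 bases.

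miR398-1.2-3p: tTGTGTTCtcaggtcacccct
site in TraesCS2A01G399000 and TraesCS2B01G417000: cttGGTGACCTGgGAACACtA
miR528-1.2-5p: tGGAAGGGgcatgcagaggag
site in TraesCS7A01G292100 and TraesCS7B01G197300: tgCCTCTGCccGCCCtTTCCA

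The seeds of these miRNAs differed from each other and were found in none (0) of the other miRNAs among the 73 in the table. Each family had 1 miRNA there. Their precursors are given next, with the mature miRNA in capitals, because miR398-1.2-3p comes from the 3′ arm of its hairpin and miR528-1.2-5p from the 5′ arm. The mature sequence occurred once in each precursor, at bases 81 to 101 of 122 in that of miR398 and at bases 21 to 41 of 119 in that of miR528.

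miR398-1 precursor: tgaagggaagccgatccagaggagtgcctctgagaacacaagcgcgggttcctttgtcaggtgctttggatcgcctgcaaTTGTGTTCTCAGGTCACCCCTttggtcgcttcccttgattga
miR528-1 precursor: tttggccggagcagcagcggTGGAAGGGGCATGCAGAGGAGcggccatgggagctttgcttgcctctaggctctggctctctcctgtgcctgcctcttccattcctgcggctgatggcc

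Both miRNAs formed 16 Watson-Crick pairs over their 21 bases, but the imperfect positions lay in different places. With miR398-1.2-3p, there were 4 mismatches, at base 2 and at bases 19, 20 and 21, and 1 G:U pair, at base 9. With miR528-1.2-5p, there were 3 mismatches, at bases 11, 12 and 20, and 2 G:U pairs, at bases 6 and 21. Seed pairing was thus imperfect at 1 of 7 bases in either duplex, a mismatch for miR398 and a G:U pair for miR528. Bases 13 to 18 were fully paired in both. The last 3 bases, 19 to 21, had no Watson-Crick pair (0 of 3) with miR398 and 1 of 3 with miR528.

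**Figure D1:**
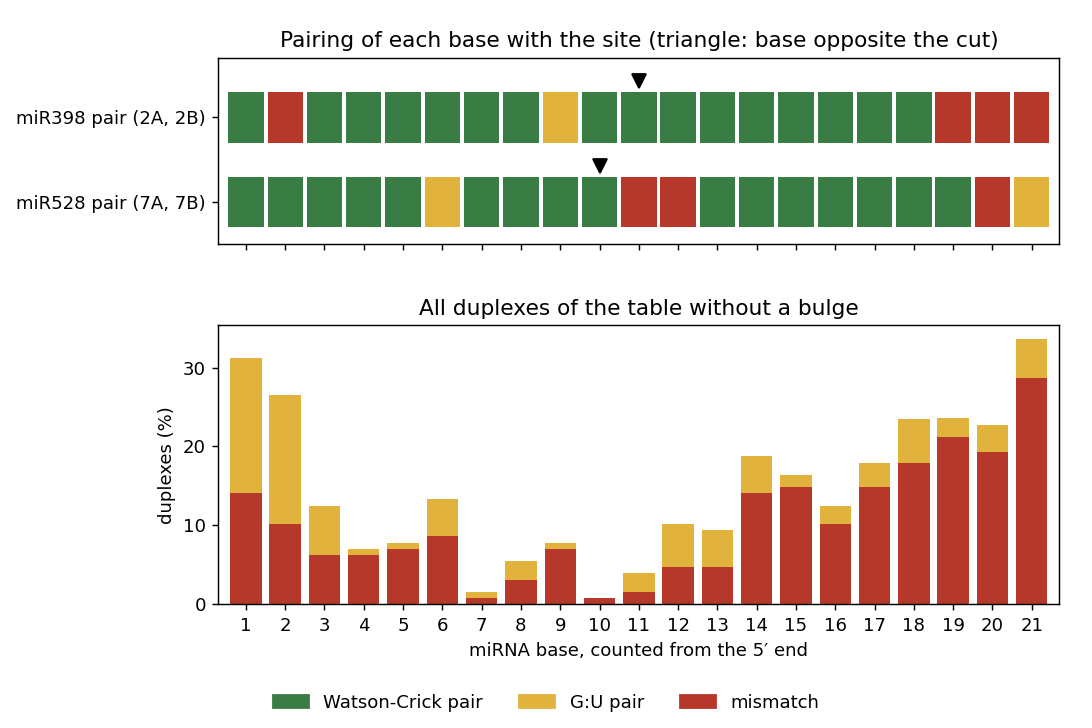
State of each miRNA base (x axis, counted from the 5′ end) in the duplexes of the miR398 pair and the miR528 pair (upper panel, 1 cell per base, with a triangle over the base opposite the cut), and the percent of the 128 distinct duplexes of the table without a bulge that had a mismatch or a G:U pair at each base (lower panel, stacked bars). Shorter miRNAs lack the last bases, so the percent at bases 19, 20 and 21 is of 127, 119 and 101 duplexes. The mismatches of miR398 lay at base 2 and bases 19 to 21, and those of miR528 included bases 11 and 12, where few duplexes of the table had one.

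Mismatches near the middle of a duplex were rare in the table. Over its 128 distinct duplexes of a miRNA and a site sequence without a bulge, a mismatch at base 11 or 12 was found in 7, or 5.47%, and the miR528 duplex was the 1 that had both. The miR398 duplex had none at base 10, 11 or 12. By single base, the share of duplexes with a mismatch was 0.781% at base 7, 3.1% at base 8 and 7.03% at base 9. It was 1.56% at base 11, 4.69% at base 12 and 14.1% at base 14. A mismatch at base 2, as in the miR398 duplex, was found in 13 duplexes, or 10.2%, and the 12 beside it came from 7 families. A mismatch at any of bases 19 to 21 was common, in 60 of the 128 (46.9%), whereas one at all 3 of them was found in 3 duplexes. Shorter miRNAs lack some of these bases, and only 101 of the duplexes reached base 21. These shares describe the duplexes listed, many of which share a miRNA family or a site, and the features were picked out after the member duplexes had been seen.

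The cut was listed 1 base apart in the pairs when counted along the miRNA. In the miR398 pair it lay opposite base 11, at position 713 of the coding sequence in TraesCS2A01G399000, where the site spans positions 703 to 723, and at position 707 in TraesCS2B01G417000, where it spans 697 to 717. In the miR528 pair it lay opposite base 10, at position 65 in both TraesCS7A01G292100 and TraesCS7B01G197300, in a site spanning 54 to 74. The miR528 cut was therefore at the usual slicing position, directly beside the mismatches at bases 11 and 12, and the miR398 cut was 1 nt upstream of it on the transcript, inside a paired stretch. Over the table, 28.9% of the 239 combinations of a miRNA and a site had the cut opposite base 11 and 42.3% opposite base 10.

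The position within the coding sequence also set the pairs apart. The miR398 sites lay in codons 235 to 241 of the 2A locus and codons 233 to 239 of the 2B locus, starting at the first base of a codon in both, and the copies were shifted by 6 nt, that is, by 2 whole codons. The miR528 sites lay in codons 18 to 25 in both copies, near the start, with no shift (0 nt). All 4 cuts fell on the second base of a codon, codon 238 on 2A, codon 236 on 2B and codon 22 on 7A and 7B. No stop codon (0) occurred within any of the 4 sites in the reading frame given by these positions. In the other frames, 1 occurred in the miR398 site and 0 in the miR528 site.

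**Figure D2:**
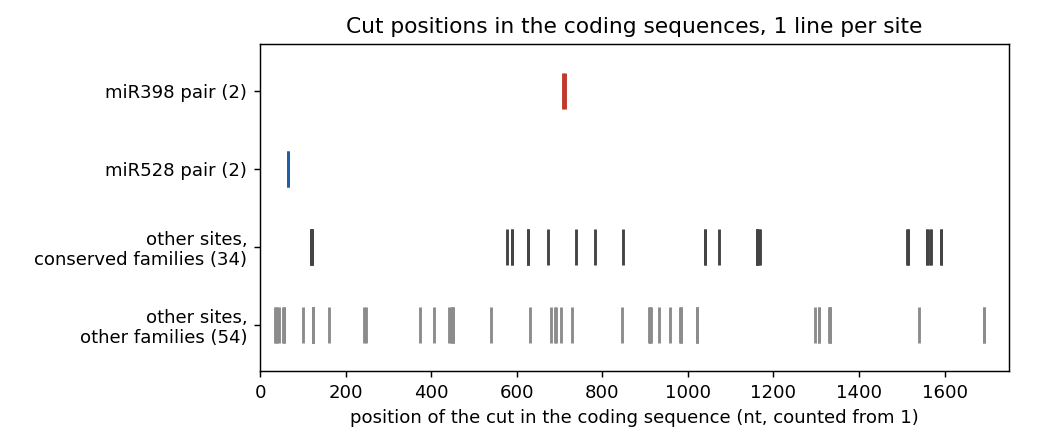
Position of the cut in the coding sequence (x axis, in nt counted from 1), with 1 vertical line per site, for the 2 sites of the miR398 pair, the 2 of the miR528 pair, and the other sites of conserved and other families. The miR398 cuts lie at 707 and 713, close to the median of 710 over all 92 sites, and the miR528 cuts lie at 65, which 7 sites of the table precede.

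Over all 92 sites the cut position ranged between 36 and 1692, with a median of 710. The cuts of the miR398 pair stood at the middle of that range of sites, with 46 sites at a lower position than the 2A cut and 45 at a higher one. The miR528 cuts were among the earliest, with 7 sites at a lower position and 83 at a higher one. The table has 6 families with a well known target class, miR156, miR159, miR166, miR393, miR398 and miR528, which are called conserved here although miR528 is specific to monocots. Among their 38 sites, none (0) was cut at a lower position than the miR528 pair.

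The positions bear on the annotation as well. Sites that end in codon 241 on 2A and codon 239 on 2B mean that these coding sequences have at least that many codons. Cytosolic Cu-Zn superoxide dismutase subunits are shorter than this. Plastid ones carry a transit peptide, and whether they reach this length with it was not checked. The copper chaperone for superoxide dismutase is a longer protein with a domain like the enzyme. Which of these the miR398 loci encode was not determined, since the table gives neither their length nor their protein. The 7 full codons that each miR398 site holds in frame were not compared with known proteins. The name used here is that of the table, and it may not be right for the miR398 pair.

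Tag counts at the cuts were low in both pairs and could not be told apart. TraesCS2A01G399000 had 5 PARE tags at its cut and TraesCS2B01G417000 had 5 (exact Poisson 95% interval 1.62 to 11.7 for each). TraesCS7A01G292100 had 4 tags and TraesCS7B01G197300 had 4 (interval 1.09 to 10.2 for each). The copies of a pair thus had the same count, and since they share the site sequence, the table does not show whether their tags are the same tags counted for each copy. Taking each pair as 1 site, the miR398 pair had 1.25 times the tags of the miR528 pair, with an exact interval of 0.269 to 6.30 from counting error alone. That interval holds both a much lower and a much higher value for the miR398 pair. It also takes for granted that the counts come from 1 depth, which is not stated.

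**Figure D3:**
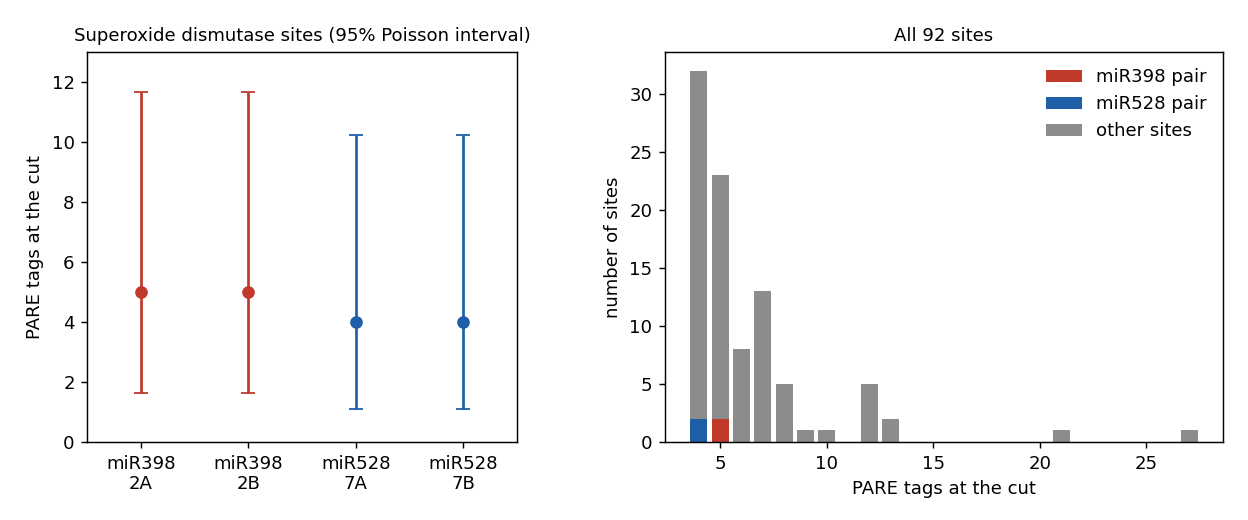
PARE tags at the cut of the 4 superoxide dismutase sites (left, points with exact Poisson 95% intervals, counting error only) and number of sites by tags for all 92 sites (right, stacked bars with the miR398 pair, the miR528 pair and the other sites). The miR398 sites stand at 5 tags, the median of the table, and the miR528 sites at 4, the lowest value listed.

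The miR398 pair stood at the median of the table, 5 tags, and the miR528 pair at its lowest value, in a range of 4 to 27 tags. More tags than the miR398 pair were found at 37 of the 92 sites (40.2%), and fewer at 32. Among the 38 sites of the 6 conserved families, more tags were found at 8 (21.1%) and fewer at 16. More tags than the miR528 pair were found at 60 sites, and none (0) had fewer, since 4 was the lowest count kept. An abundance over 4, the threshold named in the methods, was met by the 2 miR398 sites and neither of the miR528 sites, against 65.2% of all sites.

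At each of the 4 cuts the tags made up the whole of the window that the authors summed around the cut. The miR398 sites had 5 of 5 tags (Wilson 95% interval 56.6 to 100%) and the miR528 sites 4 of 4 (interval 51.0 to 100%). All 4 were in category 0, the most prominent class of peak within its transcript. A site in category 0 with its whole window at the cut was found 17 times among the 92 sites (18.5%), the 4 members included. It was counted at 29.0% of the 62 loci and 35.9% of the 39 copy sets. Copy sets are loci with the same miRNA, counts, score and p-value. Both shares include TraesCS5B01G215200, where the whole window (cut 690, category 3) and category 0 (cuts 681 and 691) were at different sites. They are too high by this 1 locus, but the trait was not unusual when related sites were counted once. With so few tags, a neighbouring position that held a substantial part of the cuts could have been missed. Each of the 4 loci was listed once, with 1 miRNA and 1 site.

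The deposited target scores placed both pairs among the poorer pairings. The score, a penalty where 0 is perfect pairing, was 4.5 for the miR398 pair and 5 for the miR528 pair, against a median of 3.5 and a range of 0 to 7 over the 92 sites. A lower, that is better, score than that of the miR398 pair was found at 66 sites (71.7%), and a lower one than that of the miR528 pair at 72 (78.3%). The deposited p-value of the site was 0.005825 in the miR398 pair and 0.013007 in the miR528 pair. A p-value under 0.01 was met by the 2 miR398 sites and neither of the miR528 sites, against 77.2% of all sites.

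**Figure D4:**
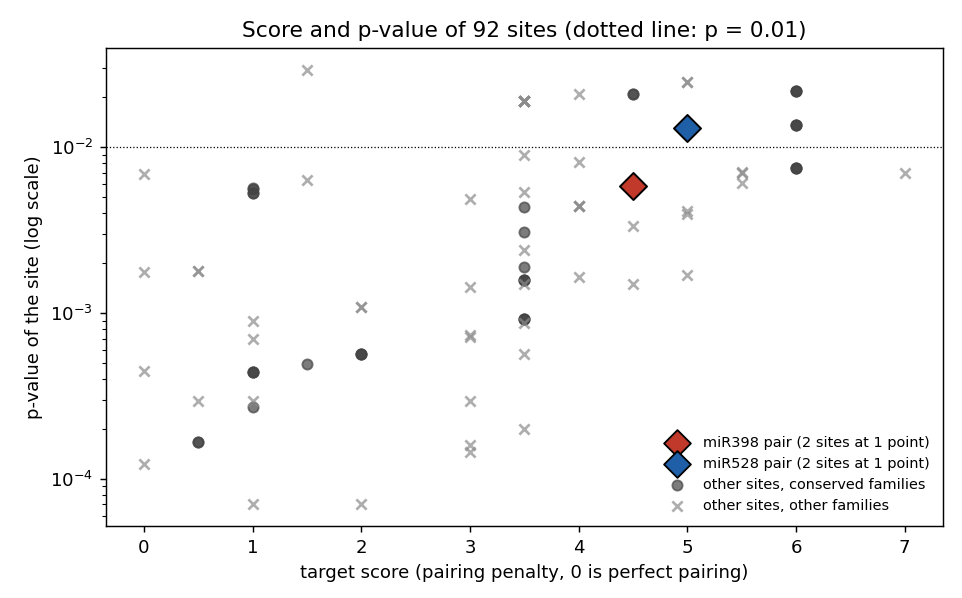
Target score (x axis, a pairing penalty where 0 is perfect) and deposited p-value (y axis, log scale) of the 92 sites, with the miR398 pair and the miR528 pair as diamonds, each holding 2 sites at 1 point, and the other sites split into conserved families and others. The miR398 pair lies at a score of 4.5 below the dotted line, drawn at 0.01, and the miR528 pair at a score of 5 above it.

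The small gap in score came from how G:U pairs are counted. A penalty of 1 for a mismatch, 0.5 for a G:U pair, 1 more for a G:U pair beside a mismatch, and 1.5 for a bulge gave the deposited score in 239 of 239 rows. By this count the miR398 duplex had 4 for its mismatches and 0.5 for its G:U pair. The miR528 duplex had 3 for its mismatches, 1 for its G:U pairs and 1 more because the G:U pair at base 21 lies beside the mismatch at base 20. Without that last term the order turned, with 4.5 for the miR398 pair and 4 for the miR528 pair. Mismatches at bases 11 and 12 thus counted no more than mismatches elsewhere.

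Scored by the same count, with the miRNA placed at the same end of the site, miR398-1.2-3p had a penalty of 4.5 at its own site and 16 at the miR528 site, and miR528-1.2-5p had 5 at its own site and 14.5 at the miR398 site. Rows were listed for good pairing, the highest listed score being 7, and each of the 4 loci had 1 row. That other miRNAs paired worse was therefore set by the listing and is no finding.

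The rows used here are fewer than the target list that the study describes, so what is missing among them is not informative. Of 15 keywords for copper and redox proteins, which include ascorbate oxidase, peroxidase, catalase, laccase, glutathione, thioredoxin and blue copper protein, 14 matched no locus among these 62. The 1 that matched was superoxide dismutase, the term by which the 4 loci were chosen. Among the same 62 loci, only the 4 superoxide dismutases were listed under miR398 or miR528. Neither count shows that no other copper protein was cut.

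Other sites shared the readouts of these pairs. The miR398 pair shared 5 tags, category 0 and a whole window with 1 other site of the table, in TraesCS1D01G444200, a calcium-binding family protein under miR1318, at a score of 3.5 and a p-value of 0.005356. For the miR528 pair, 7 other copy sets had 4 tags, category 0 and a whole window. The nearest by score were TraesCS3A01G110300, a Nudix hydrolase-like protein under miR159, at 6, TraesCS2A01G286200, a transport inhibitor response 1-like auxin receptor under miR393, at 3.5, and TraesCS5B01G557400, a beta-fructofuranosidase, which splits sucrose, under miR1137, at 3. Likeness here means equal tags, category and window share, then the gap in score.

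In both pairs the copies listed were on the A and B sub-genomes, and no row for a D copy was among those used here. Of the 39 copy sets of the table, 13 held more than 1 locus, 5 of them with A and B copies only, these pairs included, and 5 with copies on all 3 sub-genomes. Genome coordinates of the loci were not used here.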

How the data were processed

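The members and lists were chosen with earlier results of these data known. Per the study's methods, reads of 19 to 21 nt were collapsed to tags and mapped with sPARTA to wheat coding sequences (IWGSC RefSeq v1.0), and miRferno predicted the targets. The authors' table gives a whole-number tag count, a deposited window signal, the deposited fraction of the window at the cut (equal to tags over window within 0.000481), the authors' target score and category score, and the deposited p-value (a corrected p-value was left aside), with no stated normalization. Depth per library is unknown and the table has 0 per-library columns that could be used. Intervals cover counting error only. The authors state an abundance over 4, yet 123 rows stood at exactly 4 tags. A site was a distinct locus and position, with the highest tags and lowest score over its rows. Bases of a duplex were counted from the 5′ end of the miRNA, paired to the last base of the site. Precursor sequences are the study's. The table used here has fewer loci than the study describes. The scoring was tested on simulated duplexes. No test was made, since nothing was replicated. Named loci are the members, loci on the keyword list or under miR398 or miR528, and up to 3 copy sets per pair with equal tags, category and window share and the nearest score. Of 62 locus IDs, 0 were found in the names table of assembly v2.1. Python 3.11.15, pandas 2.3.3 and scipy 1.17.1 were used.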

Additional observations from a re-analysis of the deposited data

How the results depend on the processing

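No paired analysis was possible because the values are not split by library or replicate. Of the 4 superoxide dismutase loci, 2 were left at an abundance over 4 and 2 at a p-value under 0.01, the miR398 pair in both cases. The tag ratio of 1.25 was the same with copies summed, and its interval held 1 under each form. Sites with more tags than the miR398 pair were 40.2% by site, 29.3% by row and 21.1% among conserved families, and those with more tags than the miR528 pair 65.2% by site and 48.5% by row. Sites with a lower score than the miR398 pair were 71.7%, against 82.1% by copy set, 80.3% at a p-value under 0.01 and 60.5% among conserved families. For the miR528 pair they were 78.3%, and 89.7% by copy set. Category 0 with a whole window was 18.5% by site, 29.0% by locus and 35.9% by copy set. The shares by locus and by copy set also count TraesCS5B01G215200, where no single site had both traits. The penalty of the miR398 pair minus that of the miR528 pair was -0.5. It was -1.5 with penalties doubled at bases 2 to 13 or 2 to 12, 0 with bases 2 to 8 doubled, and 0.5 without the extra term for a G:U pair beside a mismatch, which was added after the data were seen. Counted from the start of the site, the miR528 cut lay at site position 12 and the miR398 cut at site position 11. These are positions in the site, and the miRNA bases opposite the cuts remain 10 and 11. Counts of 4 and 5 tags set the limit on any comparison of level.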

Other observations

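Mismatches at base 11 or 12 were found in 6 duplexes beside that of miR528, and 3 of these were at 1 transcript, TraesCS5B01G215200, annotated as glucan synthase-like 10, a callose synthase. The others were at TraesCS1D01G444200 (calcium-binding family protein), TraesCS2A01G152000 (low temperature and salt responsive protein) and TraesCS3A01G110300 (Nudix hydrolase-like protein). All 6 had 4 to 5 tags at the cut, at scores of 3.5 to 6.5, and the cut lay opposite base 10 in 3 of them. None (0) of the 6 had both mismatches. No explanation was tested.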
